A study of Mus musculus with 9 samples.

Results

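The comparison described here is that of MIN6 cells kept for 24 h in low arginine medium, at 0.1 times the standard arginine concentration, with MIN6 cells kept for the same time in standard arginine medium, at 1 times that concentration. It was chosen with earlier results of these data known. Its libraries were taken by medium alone and are 6 of the 9 libraries of the series, 3 of each medium. The other 3 libraries come from cells in 20 times the standard concentration and are set beside some values, since they belong to another comparison that shares the standard libraries. MIN6 is an insulin-secreting mouse insulinoma line, derived from a transgenic mouse that expressed the SV40 large T antigen in its beta cells, and the labels give its strain as C57BL/6. All cells were of this line, and total RNA was used for directional libraries. Whether the 3 libraries of a medium came from separate cultures is not given in the labels, so each p-value reflects only how far these libraries spread, which may be technical.

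Arginine is used for protein synthesis and is the substrate of nitric oxide, creatine and polyamine synthesis. Cells register a lack of amino acids by several routes. Uncharged tRNA activates the kinase GCN2, which phosphorylates eIF2, slows general translation and favours translation of the transcription factor ATF4. The kinase complex mTORC1, which sits on the lysosome, is inactivated, and this releases transcription factors of the MiT/TFE family that promote lysosome and autophagy genes. Beta cells devote much of their translation to insulin, which is processed in secretory granules before release.

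The labelled cell type was set against its markers. Ins2 was at 52436, 52401 and 51387 FPKM in low and 51476, 53719 and 46630.4 FPKM in standard arginine, and Iapp, Ins1, Chga, Mafa, Pdx1 and Nkx6-1 were all abundant, but Slc2a2, the glucose transporter GLUT2 of mature mouse beta cells, was at 0.0331 FPKM or less in every library and at 0 in 3 of 9. Of 12 markers of other islet cells, 4 passed the filter on low values (Sst, Ttr, Gcg and Ppy), of which 2 rose and 2 fell in low arginine. Their sum over the list was 9060.1 to 11575 FPKM in low and 6325 to 7199 FPKM in standard arginine, mostly from Sst, while Hhex, of delta cells, was at 0 in 8 of the 9 libraries. Of 17 acinar and duct markers 3 passed the filter and 1 fell; the list summed to 9.98 to 15.97 FPKM in low and 10.2 to 11.7 FPKM in standard arginine, with Prss1, Prss2, Amy2b, Cftr and Krt19 at 0 throughout. None of 18 fibroblast, endothelial and immune markers passed, and Ptprc, Cdh5, Acta2 and Adgre1 were at 0 in all 9 libraries.

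Low arginine moved most of the measured transcriptome, mostly by small amounts. Of 12300 genes tested, 3723 rose (30.3%) and 3923 fell (31.9%), so 62.2% were called in all, by limma with a Benjamini-Hochberg adjusted p under 0.05. These are the shares to set each gene class against. The median log2 change was 0.43 among the genes that rose and -0.47 among those that fell, and 9091 of all genes tested had a log2 change within 0.5 of 0. At least 2-fold rises numbered 236 and falls 403. In 8050 genes (65.5%) the 3 low and the 3 standard libraries did not overlap. Lack of overlap was a condition for naming genes outside a fixed set, so for those genes below it follows from the choice.

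Reads in genes numbered 24835801 to 26300872 in the low and 21550637 to 24452040 in the standard libraries. The first principal component, with 76.8% of the variance, set the low libraries (-39.7 to -36.4) apart from the 6 of both other media (16.8 to 20.3). The library sizes behind the deposited FPKM were 1.05 to 1.08 times the reads in genes in low and 0.962 to 1.02 times in standard arginine. In TPM, which removes that factor, the median of all genes moved by 0.10 on the log2 scale and 4855 genes rose and 3015 fell, so the share of calls that were rises went from 48.7% to 61.7%. Counts that turned or came close to even with this scaling are given in both, and the part of the scaling in them was not tested. TPM counts of a list are to be set against these 4855 rises and 3015 falls, since the median of all genes moved as well. Fold changes below are on the log2(FPKM + 1) scale, low over standard, which understates the change of low genes. A difference in bulk RNA cannot tell fewer cells of a kind from less RNA per cell.

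**Figure D1:**
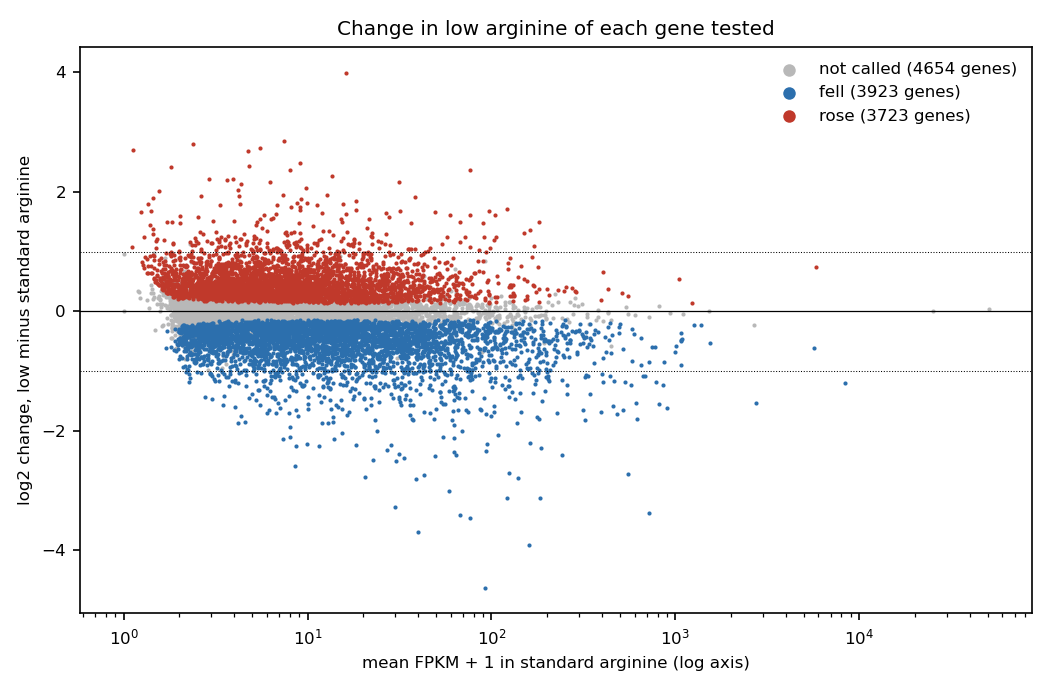
Log2 change in low against standard arginine (vertical axis, log2(FPKM + 1) scale) against mean FPKM + 1 in the 3 standard libraries (horizontal log axis) for 12300 genes, coloured by call; dotted lines mark 2-fold changes. The 3723 rises and 3923 falls lie mostly inside these lines, and 236 and 403 of them lie outside.

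**Figure D2:**
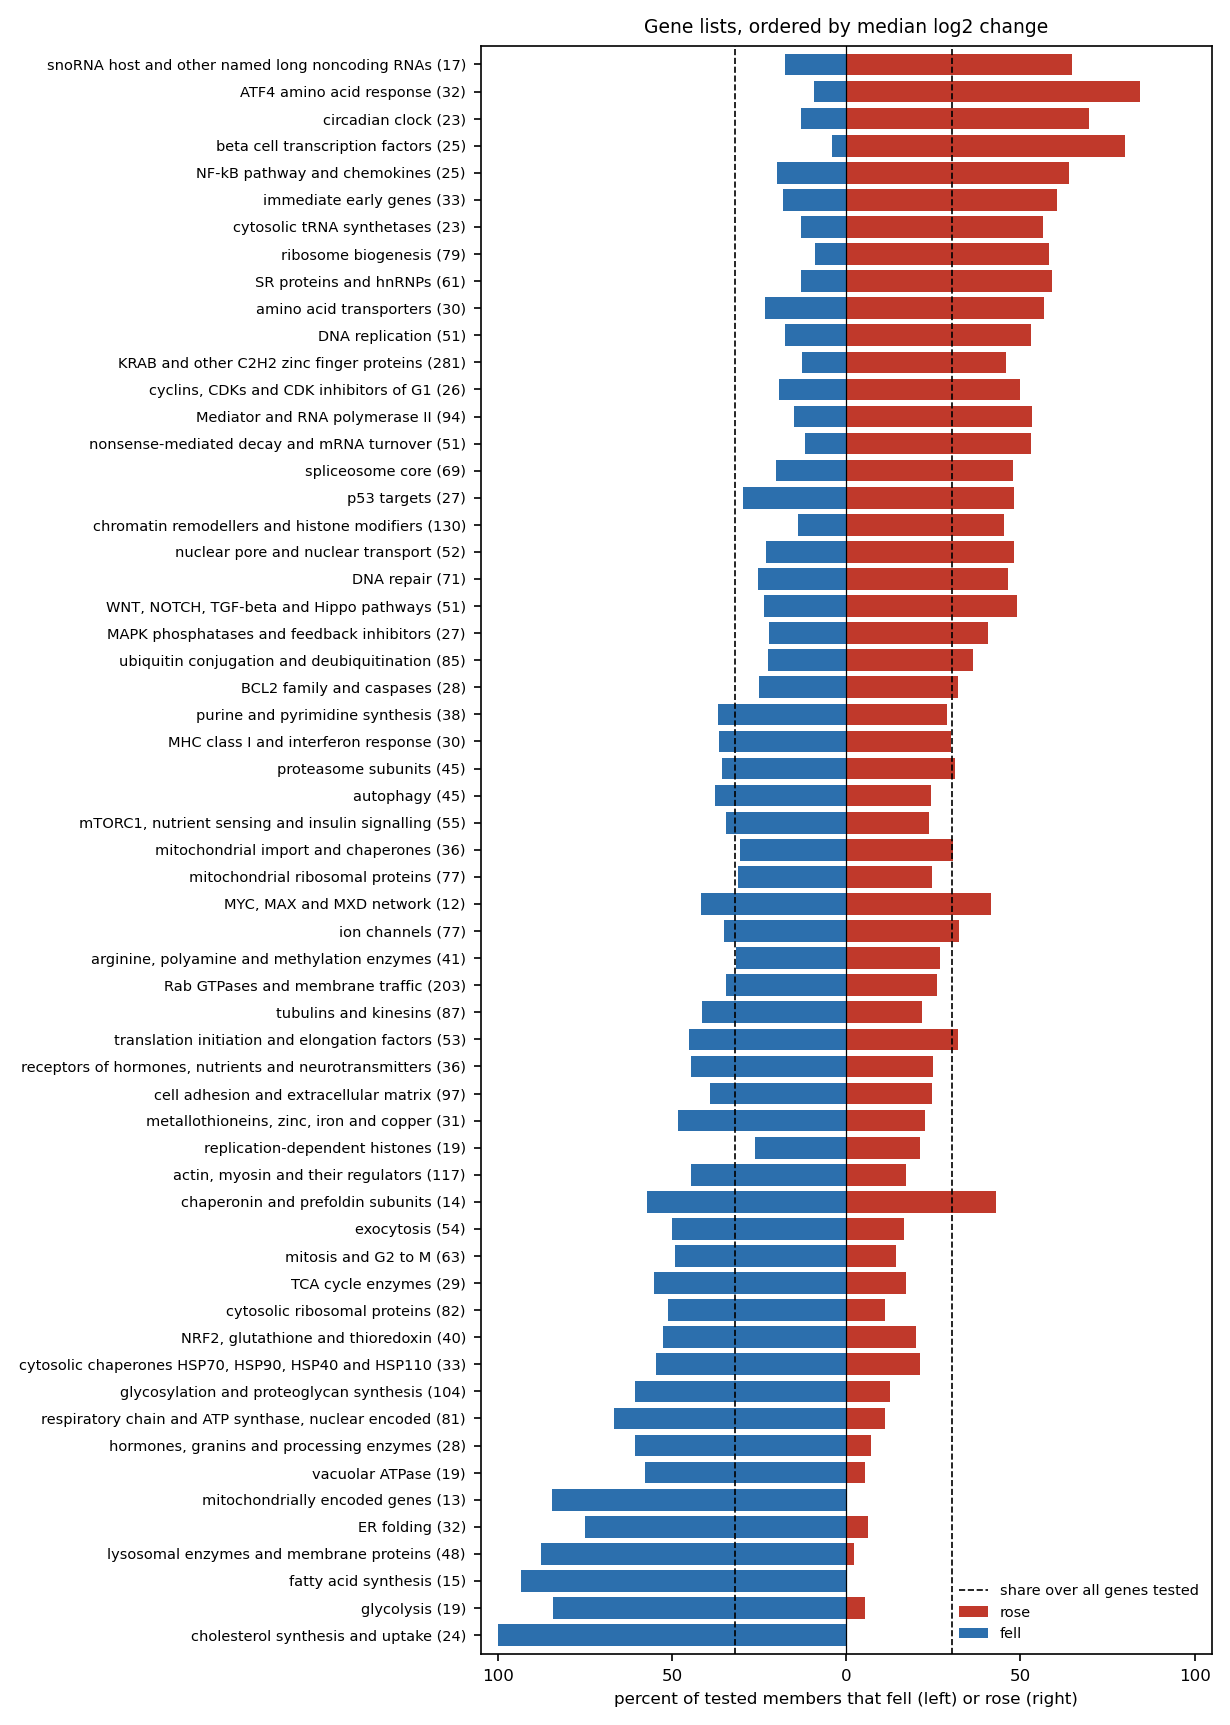
Share of tested members that rose (right) or fell (left), in percent, for each gene list with at least 10 tested members, ordered by the list's median log2 change; dashed lines mark the shares over all genes, 30.3% and 31.9%. Clock genes, beta cell transcription factors, snoRNA host genes and immediate early genes stand near the top, and lysosomal, respiratory chain and folding genes near the bottom.

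Genes of the NF-kB pathway rose in low arginine. NF-kB is a family of dimeric transcription factors held in the cytoplasm by IkB proteins until a kinase complex marks these for breakdown, and its targets in beta cells include chemokines and IkB genes themselves. Of 25 tested members of the list 16 rose and 5 fell (median log2 change 0.43). The other 16 of its 41 genes did not pass the filter on low values. The 3 members with the largest rises were the chemokine genes Cxcl10 and Ccl20 and the inhibitor gene Nfkbia, and the NF-kB consensus (GGGA, any 4 bases, then CC, read on either strand) lies in the promoter window of each, from 250 bases before to 50 bases after the RefSeq start. The windows are shown from the first to the last match with up to 40 bases on each side, 5′ to 3′ on the gene's own strand in RefSeq GRCm38.p6, with the matches in capitals. Cxcl10 is at chr5:92348943-92349088, minus strand, Ccl20 at chr1:83116645-83116734, plus strand and Nfkbia at chr12:55492627-55492897, minus strand.
Cxcl10: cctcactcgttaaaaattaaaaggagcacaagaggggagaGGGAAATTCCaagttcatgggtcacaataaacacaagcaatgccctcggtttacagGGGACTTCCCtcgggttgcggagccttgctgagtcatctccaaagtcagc
Ccl20: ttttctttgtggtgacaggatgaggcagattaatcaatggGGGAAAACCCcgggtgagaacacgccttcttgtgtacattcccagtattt
Nfkbia: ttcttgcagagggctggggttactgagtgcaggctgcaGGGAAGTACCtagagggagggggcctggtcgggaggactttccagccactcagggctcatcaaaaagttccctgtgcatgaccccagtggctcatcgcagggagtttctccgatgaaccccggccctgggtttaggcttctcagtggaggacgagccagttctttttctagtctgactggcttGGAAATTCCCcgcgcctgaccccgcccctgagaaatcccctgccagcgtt

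The same letters were in 12 of the 20 list promoters that could be read (60%) and in 26.9% of the promoters of all 8651 tested genes with one. Over all genes they were as frequent among those that rose (26.6%) as among those that fell (26.5%), so the share in the list is a description of these 20 genes.

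Cxcl10, a chemokine (chromosome 5, 92346638 to 92348889, GRCm38), was at 25.4, 11.7 and 12.7 FPKM in low arginine and at 1.11, 1.78 and 1.28 FPKM in standard arginine. The 3 low libraries lay above all standard ones, with low replicate 1 at about the sum of the other two. The log2 change was 2.80 (SE 0.24, adjusted p 3.04e-06). Ccl20, a chemokine that attracts CCR6-positive cells, was at 7.80, 5.26 and 5.65 FPKM in low arginine and at 0.351, 0 and 0 FPKM in standard arginine, so the standard libraries were at or near 0, and the log2 change of 2.69 (SE 0.15, adjusted p 1.72e-07) depends on the pseudocount. Among the libraries compared only the low ones reached the filter of 1 FPKM, so its place among the rises follows in part from the filter. Nfkbia, the IkB-alpha gene, was at 44.6, 38.5 and 43.2 FPKM in low arginine and at 13.47, 15.9 and 13.7 FPKM in standard arginine, without overlap, a change of 1.49 (SE 0.08, adjusted p 1.33e-07). Without low replicate 1 the change of Cxcl10 was 2.47. Csf1, macrophage colony-stimulating factor, rose by 1.14 and Irf1, an interferon-regulated factor, by 0.78. Of the 5 falls, 4 were those of the adaptor Traf3 (-0.46), Nfkbib, another IkB (-0.42), the TNF receptor Tnfrsf1a (-0.39) and Tnip1, an inhibitor of the pathway (-0.36).

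Interferon and antigen presentation genes did not share one direction. Of 30 tested members 9 rose and 11 fell, a balance that turned in TPM (12 rose and 8 fell), with the trend on GC content and length removed (12 rose and 9 fell) and without low replicate 2 (10 rose and 9 fell). Rsad2, the antiviral enzyme viperin, was at 12.6, 7.003 and 6.89 FPKM in low arginine and at 2.91, 2.86 and 3.33 FPKM in standard arginine. All low libraries were above the standard ones and replicate 1 was again the highest. The change was 1.24 (SE 0.17, adjusted p 1.10e-04) and 0.98 without low replicate 1, and Isg15, a ubiquitin-like modifier, rose by 0.89. Among class I antigen presentation genes, H2-T22 fell by 1.23, H2-Q7 by 1.21 and Tapbp, the peptide-loading chaperone tapasin, by 0.94 on the log2 scale. H2-Q and H2-T genes have near-identical copies, so which copy the reads came from is uncertain.

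Immediate early genes, which are transcribed within minutes of a signal and mostly encode transcription factors, were higher after 24 h in low arginine: 20 of 33 rose and 6 fell (median 0.32). The AP-1 subunits moved apart. Jun, the c-Jun gene, was at 97.4, 98.2 and 107 FPKM in low arginine and at 33.2, 37.8 and 36.1 FPKM in standard arginine, and Junb, its relative, was at 61.6, 48.6 and 53.7 FPKM in low arginine and at 18.99, 22.2 and 19.1 FPKM in standard arginine; neither pair of groups overlapped. The log2 changes were 1.48 (SE 0.08, adjusted p 1.62e-07) and 1.40 (SE 0.10, adjusted p 7.43e-07). Fos, their usual partner, was at 16, 14.2 and 15.8 FPKM in low and 12.3, 17.7 and 13.3 FPKM in standard arginine and was not called (0.09, SE 0.12). Fosl2, a Fos relative, fell by 0.44 and Egr1, a zinc finger factor that responds to growth factors, by 0.79 on the log2 scale. Atf3, a bZIP factor also induced by ATF4, had the largest rise of the list (2.85, SE 0.08). Klf10 rose by 1.44 and Zfp36l2, an RNA-binding protein that shortens mRNA life, by 0.95, while Nr4a2 fell (-0.45) and so did Ier3 (-0.83).

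Negative feedback genes of the MAP kinase pathway were split, with 11 of 27 risen and 6 fallen. Dusp6, the phosphatase of ERK, was at 86.3, 114 and 106 FPKM in low arginine and at 30.6, 31.6 and 30.6 FPKM in standard arginine. The groups did not overlap, and the change was 1.68 (SE 0.09, adjusted p 1.23e-07). Dusp4, a nuclear MAP kinase phosphatase, rose by 0.89 and Spry2, a Sprouty inhibitor of receptor tyrosine kinase signals, by 0.77. The falls included Dusp23 (-0.91) and Dusp18 (-0.57).

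Myc rose and Max fell. Myc, the growth-promoting transcription factor, was at 5.28, 4.46 and 4.29 FPKM in low arginine and at 1.07, 0.976 and 1.01 FPKM in standard arginine, without overlap, a change of 1.49 (SE 0.08, adjusted p 1.49e-07). Max, the protein Myc dimerises with, fell by 0.42, and Mxd3 and Mxd4, which compete for Max, by 1.11 and 0.64 on the log2 scale, while Mnt, another competitor, rose by 0.43. In the whole network of 12 tested genes 5 rose and 5 fell.

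The genes of nutrient sensing and insulin signalling gave no common direction, with 13 of 55 risen and 19 fallen in FPKM, turning to 22 rose and 15 fell in TPM. CASTOR proteins act upstream of mTORC1, with CASTOR1 as its arginine sensor. Castor2 was at 7.85, 7.40 and 7.21 FPKM in low arginine and at 17.8, 18.49 and 16.6 FPKM in standard arginine. Every low library was below every standard one, and the change was -1.13 (SE 0.07, adjusted p 2.69e-07). Deptor, an inhibitor within the mTOR complexes, rose by 0.99 and Sesn2, a leucine sensor that is also an ATF4 target, by 0.94. Lamtor2 and Lamtor5, of the complex that holds mTORC1 on the lysosome, fell (-0.73 and -0.72). Irs2, the main insulin receptor substrate of beta cells, was at 53.98, 52.1 and 44.8 FPKM in low arginine and at 23.6, 24.2 and 22.4 FPKM in standard arginine, a rise of 1.07 (SE 0.07, adjusted p 5.17e-07) with no overlap. Igf1r rose by 0.55 and the kinase gene Akt2 fell (-0.64).

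In the developmental pathways, 25 of 51 WNT, NOTCH, TGF-beta and Hippo genes rose and 12 fell (median 0.14; 26 rose and 6 fell in TPM). Hes1, a transcriptional repressor induced by NOTCH, was at 15.7, 13.1 and 14.4 FPKM in low arginine and at 4.92, 4.90 and 5.22 FPKM in standard arginine. The 3 low libraries were the highest of the 6, and the change was 1.35 (SE 0.09, adjusted p 6.63e-07). Rbpj, the DNA-binding factor of NOTCH signalling, rose by 0.67, Smad7, an inhibitor of TGF-beta signalling, by 0.66 and the WNT receptor Fzd7 by 0.64. Hes6, which opposes Hes1, fell (-1.09), as did the ligand genes Tgfb1 (-0.53) and Jag2 (-0.42).

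Circadian clock genes had the largest median rise of the lists with at least 20 tested members, ATF4 targets apart: 16 of 23 rose, 3 fell and the median log2 change was 0.58. The clock is a feedback loop in which the activators CLOCK and BMAL1 (Arntl) bind E-boxes, induce Per, Cry, Nr1d1 and Nr1d2, and are in turn repressed by their products; the bZIP factors DBP and NFIL3 act at D-boxes. The E-box letters CACGTG were in 5 of 17 readable clock promoters (29.4%) and in 10.8% of the 8651, and the D-box letters TTATGTAA in 2 of 17 (11.8%) and 0.428%, counting both strands. A match is a description of the letters. Of these promoters 3 are printed, with matches in capitals and 40 bases on each side, to show an E-box repeat, a single E-box and a D-box. They were chosen after their values were seen. Ciart, a clock repressor (log2 change 0.97), is at chr3:95882227-95882384, minus strand, Bhlhe41, the DEC2 repressor (0.76), at chr6:145865528-145865613, minus strand and Timeless (0.82), a replication and clock-associated factor, at chr10:128237869-128237956, plus strand; all 3 genes rose.
Ciart: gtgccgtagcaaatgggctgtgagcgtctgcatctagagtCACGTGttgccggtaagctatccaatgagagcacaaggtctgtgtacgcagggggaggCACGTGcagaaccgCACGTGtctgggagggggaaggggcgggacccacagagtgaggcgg
Bhlhe41: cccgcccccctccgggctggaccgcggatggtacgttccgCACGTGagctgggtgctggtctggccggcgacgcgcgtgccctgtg
Timeless: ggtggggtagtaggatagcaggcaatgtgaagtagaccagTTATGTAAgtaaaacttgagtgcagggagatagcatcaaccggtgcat

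Nr1d1, the REV-ERB-alpha repressor (chromosome 11, 98767932 to 98775333), was at 22.1, 13.7 and 14.1 FPKM in low arginine and at 3.48, 2.85 and 3.30 FPKM in standard arginine, and at 3.34, 3.63 and 2.99 FPKM in high arginine. The low libraries exceeded all others and replicate 1 was the highest. The change against standard was 2.04 (SE 0.15, adjusted p 1.10e-06). Arntl, the BMAL1 gene, was at 6.30, 8.36 and 7.28 FPKM in low arginine and at 2.53, 2.75 and 2.43 FPKM in standard arginine, also without overlap, so the activator and its repressor were both higher (Arntl 1.21, SE 0.09, adjusted p 9.05e-07). Bhlhe40, the DEC1 repressor, was at 4.82, 3.37 and 3.18 FPKM in low arginine and at 11.8, 14.3 and 10.7 FPKM in standard arginine, and fell by 1.48 on the log2 scale (SE 0.16), opposite to Bhlhe41. Nfil3 rose by 1.64 (SE 0.09) and Nr1d2 by 1.14 (SE 0.12). Per1 rose by 0.58 and the D-box activator Dbp by 0.41, though Dbp was not called without low replicate 1 or standard replicate 1. The small fall of the kinase gene Csnk1d (-0.16) was not called in TPM or after quantile normalization. Cultures were sampled at 1 time only, so a change in level and a shift of phase cannot be told apart.

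Transcription factors of beta cell identity rose. Of 25 tested factors 20 rose and 1 fell (median 0.52). The list summed to 1323 to 1395 FPKM in low and 750.1 to 814 FPKM in standard arginine. In high arginine it summed to 843 to 891 FPKM, above each standard library, with 1 member called as risen against standard. Pax4, a factor of beta and delta cell development (chromosome 6, 28442334 to 28449353), was at 14.9, 12.7 and 14.2 FPKM in low arginine and at 3.17, 3.27 and 3.39 FPKM in standard arginine. Low libraries were all above standard ones, and the change was 1.803 (SE 0.07, adjusted p 2.57e-08). Sox4, another developmental factor, was at 23.1, 22.2 and 22.1 FPKM against 6.05, 5.92 and 5.43 FPKM and rose by 1.79 (SE 0.06); in the same list Nkx6-1 rose by 1.503, Pdx1 by 1.31 and Mlxipl, the glucose-responsive factor ChREBP, by 0.53. The single fall was that of Rfx6 (-0.38), a factor of endocrine differentiation.

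**Figure D3:**
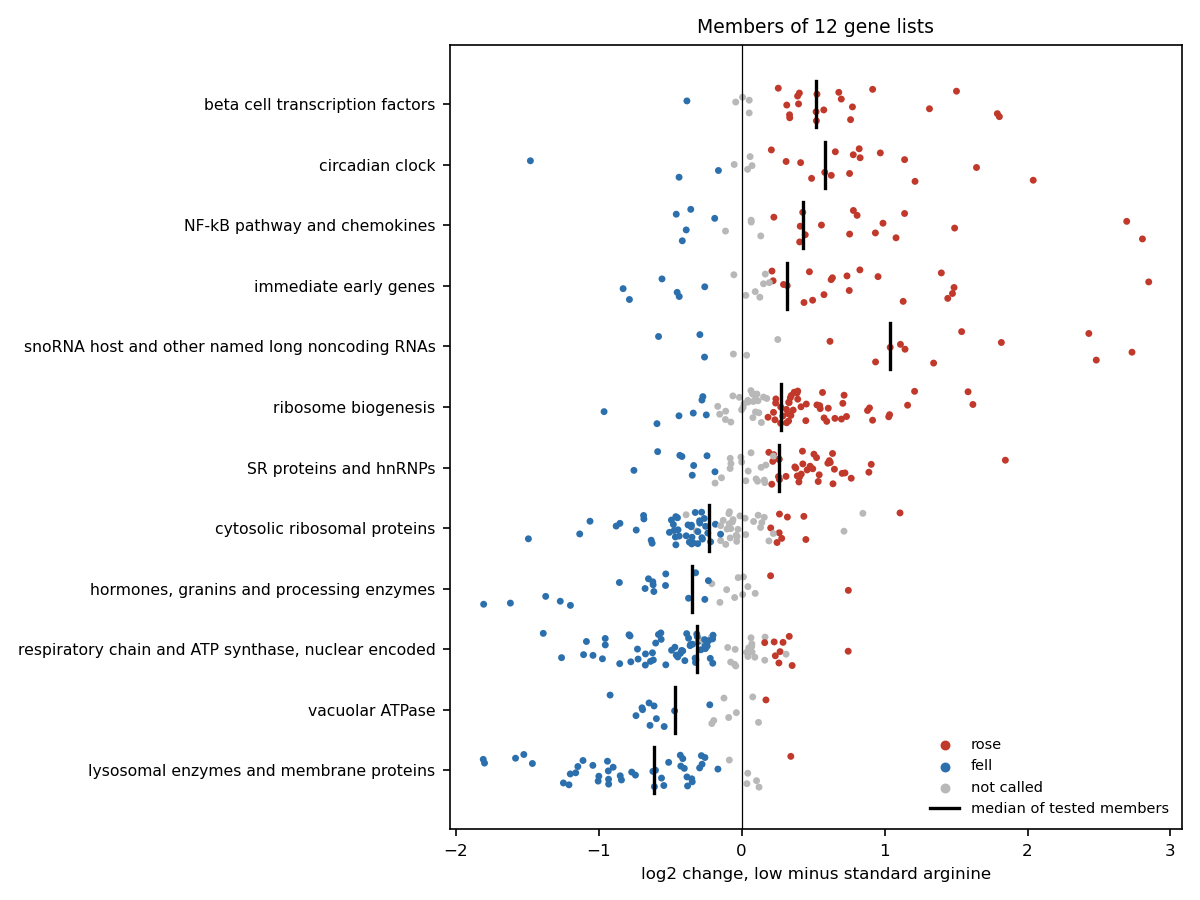
Log2 change in low against standard arginine (horizontal axis) of each tested member of 12 gene lists (1 point a gene, coloured by call), with the list's median as a bar. The clock, beta cell factor, snoRNA host and ribosome biogenesis lists lie mainly right of 0, and the lysosome, respiratory chain and hormone lists mainly left of it.

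Rises were frequent among transcription factors at large. Of 751 tested genes that the deposited table assigns to a transcription factor family, 358 rose (47.7%) and 115 fell (15.3%), with a median log2 change of 0.20. The C2H2 zinc finger family had 132 rises and 30 falls among 295 genes, the homeobox family 27 and 9 among 52, the HMG family 14 and 2 among 22 and the ZBTB family 22 and 5 among 35. The bHLH family was more even, with 17 rises and 13 falls among 41. In the list of zinc finger genes 129 of 281 rose and 36 fell (160 rose and 23 fell in TPM), from 1.10 for Zbtb2 to -1.21 for Zfp771. Zbtb2, the top of that range, was chosen after its value was seen.

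Parts of the transcription machinery moved the same way. Of 94 Mediator and RNA polymerase II genes 50 rose and 14 fell (median 0.20), among them the Mediator subunits Med20 (1.06) and Med12 (0.88) and the TFIID-linked Taf15 (0.81), while Polr2b, the second-largest polymerase subunit, fell (-0.56). Of 130 chromatin genes 59 rose and 18 fell. Sirt1, an NAD-dependent deacetylase, rose by 1.20 (SE 0.10) and Arid1a, of the BAF remodeller, by 0.67. Sirt2, a mainly cytoplasmic deacetylase of tubulin among other proteins, fell (-0.93), as did Hdac6, another tubulin deacetylase (-0.65), and Smarcc1, also of the BAF complex (-0.55).

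Genes that host small nucleolar RNAs were listed with other named long noncoding RNAs, and this list had the largest median rise over tested members. Host genes carry in their introns the snoRNAs that guide modification of ribosomal RNA, and several of their spliced transcripts, Gas5 among them, are known to be degraded by nonsense-mediated decay when they are translated. Of 17 tested host and other named long noncoding RNAs 11 rose, 9 of them at least 2-fold, 3 fell and the median log2 change was 1.04. Their summed level was 332 to 356 FPKM in low and 137 to 154 FPKM in standard arginine. Snhg12 (chromosome 4, 132308623 to 132311024) was at 34.4, 36.2 and 36.4 FPKM in low arginine and at 4.21, 4.84 and 4.54 FPKM in standard arginine, a change of 2.73 (SE 0.06, adjusted p 3.38e-10). Gas5 was at 29.3, 29.9 and 30.6 FPKM in low arginine and at 7.96, 8.16 and 7.24 FPKM in standard arginine, a change of 1.82 (SE 0.08, adjusted p 3.28e-08). In both genes every low library was above every standard one. Snhg1 rose by 2.48 (SE 0.10), Zfas1 by 2.43 (SE 0.07) and Epb41l4aos by 1.34. Malat1, a nuclear long noncoding RNA that hosts no snoRNA, was at 44.5, 13.2 and 25.8 FPKM in low and 25.4, 15.8 and 35.2 FPKM in standard arginine and was not called (0.04, SE 0.37). Of 59 snoRNA genes tested themselves, 1 rose, 6 fell and 52 were not called. That is 11.9% called, against 62.2% over all genes. Reads over these loci need not reflect the mature snoRNA, and whether snoRNAs followed their hosts was not tested. In the host list 11 rose and 1 fell in TPM, and there was 1 fall without low replicate 2, standard replicate 1 or standard replicate 2. Of its 35 genes 18 did not pass the filter on low values. With no such filter 13 rose, 1 fell and the median was 0.07, so its rank holds for tested members only.

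Genes that act on mRNA stability rose more often than they fell: 27 of 51 members of the nonsense-mediated decay and mRNA turnover list rose and 6 fell (median 0.20). Upf3b, of the exon junction branch of that decay, rose by 1.15 (SE 0.13), and Smg5, which recruits degrading enzymes to its targets, by 0.66. Upf3a, the paralog of Upf3b, fell (-0.44), as did Skiv2l, the helicase that feeds the exosome (-0.91), and the deadenylase gene Cnot7 (-0.62).

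Splicing factors rose. Of 61 SR and hnRNP genes 36 rose and 8 fell (median 0.26), and of 69 spliceosome core genes 33 rose and 14 fell (median 0.18). Rbm39, a splicing coactivator, was at 69.6, 59.97 and 64.5 FPKM in low arginine and at 16.1, 15.3 and 20.8 FPKM in standard arginine. The groups did not overlap and the change was 1.84 (SE 0.10, adjusted p 1.58e-07). Hnrnph1 rose by 0.89, its relative Hnrnph3 by 0.91 and Clk4, a kinase of SR proteins, by 0.77. Snrpb, a core protein of the spliceosomal particles, rose by 0.76, whereas its neuronal counterpart Snrpn fell (-0.75). Hnrnpa1 (-0.75), Hnrnpl (-0.42) and Rbm10 (-0.43) fell. The cold-inducible Rbm3 was not called (0.03, SE 0.07).

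Of 79 ribosome biogenesis genes 46 rose and 7 fell (median 0.27), with a summed level of 1196 to 1245 FPKM in low and 968 to 986 FPKM in standard arginine. Nop56, a core protein of box C/D snoRNA particles (chromosome 2, 130274430 to 130279313), was at 77.3, 87.3 and 81.3 FPKM in low arginine and at 25.7, 27.7 and 26.5 FPKM in standard arginine. The low libraries were all higher, a change of 1.58 (SE 0.10, adjusted p 2.72e-07). Its partner Nop58 rose by 1.62 (SE 0.10), Wdr43, of the small-subunit processome, by 1.21 and Ubtf, an activator of ribosomal RNA transcription, by 1.16, while Imp3 (-0.96) and Bop1 (-0.59) fell. The E-box letters CACGTG were in 14 of 65 promoters of this list (21.5%). Of 82 cytosolic ribosomal protein genes 9 rose and 42 fell (median -0.23); this balance held in TPM (15 rose and 33 fell) and turned under quantile normalization (28 rose and 22 fell). Rpl15 fell by 1.13 and Rpl14 by 1.06 on the log2 scale, and the largest rise was that of Rpl7l1 (1.11), a relative of Rpl7 that acts in ribosome assembly. Ribosomal protein genes have many near-identical pseudogenes, so single values are uncertain.

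Mitochondrial ribosomal proteins had no stable balance, with 19 of 77 risen and 24 fallen in FPKM and 32 rose and 17 fell in TPM; their largest changes were those of Mrpl2 (1.13) and Mrpl14 (-1.44). Translation factors were likewise split (17 of 53 rose and 24 fell, against 22 rose and 15 fell in TPM and 21 rose and 20 fell after quantile normalization). Eef2, the factor that moves the ribosome along mRNA, was at 377, 365 and 346 FPKM in low arginine and at 888, 909 and 763 FPKM in standard arginine. Every low library was below every standard one, a change of -1.23 (SE 0.08, adjusted p 7.13e-07). Eif1, which checks start codons, rose by 1.10 (SE 0.05) and Eif4e, the cap-binding protein, by 0.74. Cytosolic tRNA synthetases mostly rose, 13 of 23 against 3 that fell (median 0.28). Several of these are known ATF4 targets. Yars, the tyrosyl-tRNA synthetase, was at 75.4, 72.7 and 69.6 FPKM in low arginine and at 35.6, 36.4 and 32.2 FPKM in standard arginine, a change of 1.04 (SE 0.06, adjusted p 2.68e-07) without overlap. The 3 falls were those of Qars (-0.98), Hars (-0.50) and Kars (-0.36), for glutamine, histidine and lysine.

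**Figure D4:**
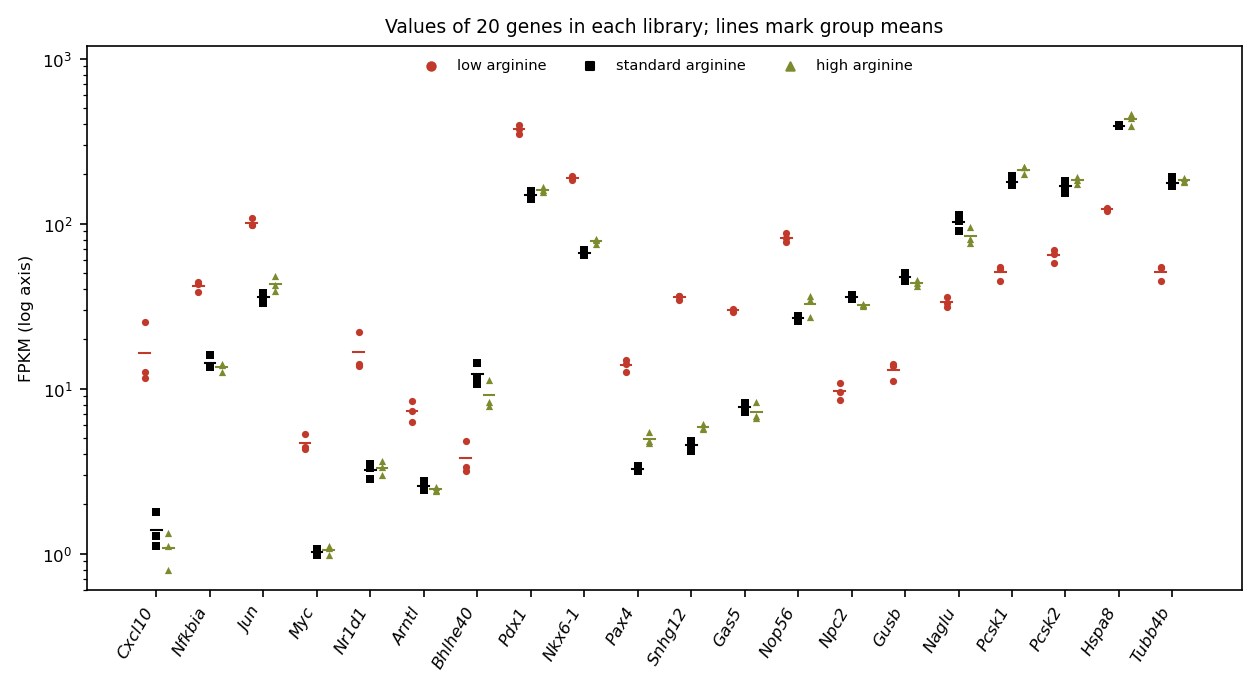
FPKM (vertical log axis) of 20 genes in each of the 9 libraries, grouped as low, standard and high arginine, with group means as lines. For each gene the 3 low libraries lie apart from the 3 standard ones, which was a condition for naming genes outside a fixed set. The high arginine libraries lie near the standard ones, though for Nkx6-1 all of them were above (74.79 to 80.56 against 64.19 to 69.31 FPKM).

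Lysosomal genes fell almost as a block. Lysosomes hold acid hydrolases that degrade protein, lipid and glycan, and a proton pump that acidifies them. Of 48 tested genes 42 fell, 13 of them at least 2-fold, and 1 rose (median -0.62), and their summed level was 2295 to 2419 FPKM in low and 3285 to 3718 FPKM in standard arginine. The letters CACGTG, which are the core of the CLEAR element bound by MiT/TFE factors as well as an E-box, were in 11 of 38 readable promoters of the list (28.9%), against 10.8% of all 8651, and in 4 of 13 of the proton pump (30.8%). These are shown for 2 lysosomal genes that fell, chosen after their values were seen: Naglu, at chr11:101069981-101070066, plus strand, and Arsa, arylsulfatase A (log2 change -1.15), at chr15:89477395-89477480, minus strand, with the letters in capitals.
Naglu: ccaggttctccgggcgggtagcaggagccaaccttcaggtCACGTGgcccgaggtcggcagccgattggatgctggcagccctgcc
Arsa: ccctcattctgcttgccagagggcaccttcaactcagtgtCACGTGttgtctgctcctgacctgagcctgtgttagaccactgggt

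Npc2, which carries cholesterol out of the lysosome (chromosome 12, 84754562 to 84773152), was at 8.56, 10.8 and 9.61 FPKM in low arginine and at 35.9, 36.7 and 35.1 FPKM in standard arginine. Gusb, the lysosomal beta-glucuronidase, was at 11.1, 14.2 and 13.7 FPKM in low arginine and at 48.3, 50.1 and 45.1 FPKM in standard arginine. Naglu, which degrades heparan sulfate, was at 31.4, 35.8 and 33.05 FPKM in low arginine and at 104, 112 and 90.6 FPKM in standard arginine. In all 3 genes every low library was far below every standard one, and the log2 changes were -1.799 (SE 0.07, adjusted p 2.17e-08), -1.81 (SE 0.09, adjusted p 6.03e-08) and -1.58 (SE 0.10, adjusted p 3.71e-07). The mannosidase gene Man2b1 fell by 1.20 on the log2 scale. Idua, the iduronidase, was the one that rose (0.34). The vacuolar ATPase had 11 falls and 1 rise among 19 genes (median -0.47). Atp6v0e (-0.92) and Atp6v0d1 (-0.74), of its membrane part, fell, and Atp6v1b2, of its catalytic part, rose slightly (0.17), a call lost without low replicate 2.

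Autophagy genes had no common direction, with 11 of 45 risen and 17 fallen, which turned in TPM (18 rose and 13 fell). Sqstm1, the cargo receptor p62, was at 553, 513 and 479 FPKM in low arginine and at 188, 191 and 165 FPKM in standard arginine, a change of 1.504 (SE 0.07, adjusted p 7.11e-08) with no overlap, the largest rise of the list; Gabarapl1 rose by 0.51 and Atg12 by 0.41. Ulk2, a kinase that starts autophagy, fell by 0.90, its partner Atg13 by 0.75 and Pik3c3, the lipid kinase VPS34, by 0.62 on the log2 scale.

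Genes of glycosylation fell: 63 of 104 against 13 that rose (median -0.26). Dad1, a subunit of the oligosaccharyltransferase, was at 26.03, 28.4 and 27.6 FPKM in low arginine and at 97.3, 94.2 and 84.3 FPKM in standard arginine. The 3 low libraries were far below the others, a change of -1.71 (SE 0.07, adjusted p 2.66e-08). Chpf, of chondroitin synthesis, fell by 1.23 and the heparan sulfotransferase gene Hs3st6 by 1.28 on the log2 scale. Other genes of heparan sulfate rose, with Glce, its epimerase, at 1.48 (SE 0.06) and Extl1 at 1.33 (SE 0.10), as did Xylt1, which starts both chains (0.83). In the wider membrane traffic list 53 of 203 rose and 70 fell, and this balance turned in TPM (80 rose and 54 fell). Its largest falls were coat subunits: Ap2s1, of the clathrin adaptor AP-2 (-1.66, SE 0.09), and Copz2 (-1.43) and Cope (-1.251), of the COPI coat.

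Mitochondrial energy genes of both genomes were lower. Of 81 nuclear genes of the respiratory chain and ATP synthase 54 fell and 9 rose (median -0.31), against 17 rose and 46 fell in TPM and 21 rose and 41 fell after quantile normalization. Of 13 mitochondrially encoded genes 11 fell and 0 rose (1 rose and 7 fell after quantile normalization), and the share of all reads in genes that lay on the mitochondrial genome was 0.675% to 0.765% in low and 0.813% to 0.955% in standard arginine. Cox6b1, a subunit of cytochrome c oxidase, was at 94.5, 102 and 96.96 FPKM in low arginine and at 257, 269 and 248 FPKM in standard arginine, a change of -1.39 (SE 0.07, adjusted p 6.60e-08). mt-Nd3, a complex I subunit encoded in mitochondria, was at 12.6, 11.9 and 15 FPKM in low arginine and at 33.6, 27.9 and 35.7 FPKM in standard arginine, a change of -1.24 (SE 0.11, adjusted p 4.95e-06). Neither gene had overlapping groups. Ndufa4 fell by 1.26, Ndufa8 by 1.11 and mt-Nd2 by 1.08 on the log2 scale, and Uqcrq, of complex III, had the largest rise within the list (0.75). Cox6a2, a cytochrome c oxidase subunit that the list does not hold, rose more and is given below.

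Among TCA cycle enzymes 16 of 29 fell and 5 rose, against 8 rose and 11 fell in TPM and 8 rose and 13 fell after quantile normalization. The largest fall was that of Idh1, the cytosolic and peroxisomal isocitrate dehydrogenase, which makes NADPH outside the cycle. Idh1 was at 5.26, 5.25 and 4.41 FPKM in low arginine and at 26.9, 32.7 and 31.6 FPKM in standard arginine, a change of -2.39 (SE 0.09, adjusted p 1.07e-08) with no overlap. Within the cycle Suclg1 fell (-0.88), while Dld (0.64) and Dlst (0.48), of the oxoglutarate dehydrogenase complex, rose. Genes of protein import into mitochondria went both ways. Hspa9, the matrix chaperone mortalin, was at 318, 310.4 and 297 FPKM in low arginine and at 90.8, 101 and 95.9 FPKM in standard arginine. The low libraries were all above the standard ones, a change of 1.68 (SE 0.06, adjusted p 7.80e-09). Timm10 rose by 1.07 (SE 0.13) and Timm22 by 0.74, both of the carrier import route, and Timm17a (-0.35) and Clpp (-0.31) fell. In the whole list 11 of 36 rose and 11 fell, with 16 rose and 5 fell in TPM and 6 falls without standard replicate 1 or standard replicate 2.

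Hormone processing genes fell while hormone mRNAs differed in direction. Of 28 hormone, granin and processing genes 17 fell and 2 rose (median -0.35), against 6 rose and 15 fell in TPM. Pcsk2, the prohormone convertase PC2 (chromosome 2, 143546156 to 143816285), was at 58.1, 69.01 and 65.9 FPKM in low arginine and at 171, 180.1 and 153 FPKM in standard arginine, a change of -1.37 (SE 0.08, adjusted p 2.34e-07), beside -1.805 for Pcsk1, its partner PC3. Ptprn2, a granule membrane protein, fell by 1.27 on the log2 scale. Sst, the somatostatin gene, was at 11255, 8662 and 9356 FPKM in low arginine and at 5826, 6161 and 5382 FPKM in standard arginine. Low replicate 1 was the highest, no low library overlapped the standard ones, and the change was 0.75 (SE 0.09, adjusted p 4.44e-05). Ppy, pancreatic polypeptide, was the other hormone gene that rose (0.20), and it was not called without low replicate 1, low replicate 2, standard replicate 1 or standard replicate 2. Ttr, transthyretin, a marker of alpha cells that beta cells also make, was at 246, 323 and 319 FPKM in low arginine and at 884, 962 and 866 FPKM in standard arginine, a change of -1.62 (SE 0.10, adjusted p 2.41e-07), and Gcg, the glucagon gene, fell (-0.62), so the genes of other islet cells listed above went both ways. Ins1 fell (-0.53) and Ins2 was not called (0.04, SE 0.06), though it rose in TPM.

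Of 54 genes of the exocytosis machinery 27 fell and 9 rose in FPKM (median -0.18). In TPM 14 rose and 18 fell (median -0.06, against 0.10 over all genes). Syt3, a synaptotagmin calcium sensor, was at 4.53, 3.64 and 4.24 FPKM in low arginine and at 11.6, 11.99 and 9.98 FPKM in standard arginine, a change of -1.248 (SE 0.09, adjusted p 8.23e-07). The groups did not overlap. Unc13a, which primes vesicles, fell by 0.98, Rab3d by 0.91 and Rph3al, a Rab effector of granules, by 0.90 on the log2 scale. The rises included Cplx2 (0.73), a complexin, which controls fusion, Cadps (0.50), Sytl4 (0.40), the granule protein granuphilin, and Stx1a (0.30), a SNARE of the plasma membrane.

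Channels and receptors contained large single changes in both directions. Of 77 ion channel genes 25 rose and 27 fell. This balance turned in TPM (30 rose and 21 fell) and with no filter on low values (31 rose and 23 fell). It also turned without low replicate 3 or standard replicate 2 (24 rose and 23 fell in each). Kcnip1, an auxiliary subunit of Kv4 potassium channels, was at 41.2, 41.1 and 40.8 FPKM in low arginine and at 16.8, 19.3 and 17.8 FPKM in standard arginine. The low libraries were all higher and almost equal, a change of 1.15 (SE 0.06, adjusted p 8.59e-08). Scn8a, a sodium channel, rose by 1.14, Kcnf1, a modulatory potassium channel subunit, by 1.11 and Kcnj11, the pore of the ATP-sensitive channel, by 0.95; Orai3, a calcium entry channel, fell (-0.81). Receptor genes numbered 36, of which 9 rose and 16 fell (11 rose and 12 fell in TPM). Adra2a, the adrenergic receptor that inhibits insulin release, was at 166, 155 and 146 FPKM in low arginine and at 50.4, 51.6 and 43.6 FPKM in standard arginine, a change of 1.66 (SE 0.08, adjusted p 4.65e-08). Sstr3, a somatostatin receptor, was at 6.20, 6.45 and 6.65 FPKM in low arginine and at 20.1, 20.3 and 17.7 FPKM in standard arginine, a change of -1.45 (SE 0.06, adjusted p 3.57e-08). Neither gene overlapped between groups, and the changes are opposite. Cckar, for cholecystokinin, rose by 1.36 (SE 0.07) and Gipr, for the incretin GIP, fell (-0.75).

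Of 87 tubulin and kinesin genes 36 fell, 10 of them at least 2-fold, and 19 rose in FPKM (median -0.09). In TPM 29 rose and 30 fell (median 0.03, against 0.10 over all genes). Tubb4b, a beta-tubulin (chromosome 2, 25222160 to 25224702), was at 45.2, 54.2 and 54.1 FPKM in low arginine and at 191, 171 and 168 FPKM in standard arginine, a change of -1.77 (SE 0.08, adjusted p 4.09e-08). Tuba1c, an alpha-tubulin, was at 11.47, 12.02 and 11.2 FPKM in low arginine and at 59.8, 49.03 and 51.2 FPKM in standard arginine, a change of -2.11 (SE 0.07, adjusted p 7.80e-09). In both, each standard library was more than 3 times the highest low one. Tubb3 fell by 1.51 on the log2 scale. Tuba1a is uncertain, since 26.2% of it overlaps another gene, and tubulin genes share long stretches of sequence. Mapt, the microtubule-binding protein tau, rose by 0.94 (SE 0.07). Of 117 genes of actin, myosin and their regulators 52 fell and 20 rose (median -0.16), against 25 rose and 36 fell in TPM. Pfn1, profilin, fell by 1.251, Actb by 0.95 and Actg1 by 0.77 on the log2 scale. Arhgef2, an exchange factor held on microtubules, rose by 1.22 (SE 0.06), Arpc5l by 1.001 and the focal adhesion gene Zyx by 0.79. Actb and tubulins are often used as reference genes, and Actb stood at 83.8, 84.5 and 80.5 FPKM in low and 170.0, 164 and 151 FPKM in standard arginine.

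Adhesion and matrix genes were split, with 24 of 97 risen and 38 fallen (31 rose and 34 fell in TPM). With a mean FPKM of at least 5 this balance turned (18 rose and 17 fell). Sema3g, a secreted semaphorin, rose by 1.29 (SE 0.06) and Gjd2, connexin 36 of beta cell gap junctions, by 1.09 (SE 0.06), while the proteoglycan gene Gpc4 fell by 1.21 and Pcdhb20, a protocadherin, by 1.248 on the log2 scale.

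Of 33 cytosolic chaperone genes 18 fell and 7 rose (median -0.26; 9 rose and 14 fell in TPM), with summed levels of 1279 to 1315 FPKM in low and 1964 to 2024 FPKM in standard arginine. Hspa8, the constitutive HSP70 (chromosome 9, 40800984 to 40810087), was at 119, 125 and 122 FPKM in low arginine and at 395, 394 and 389 FPKM in standard arginine. The low libraries were all far below the standard ones, a change of -1.68 (SE 0.06, adjusted p 1.59e-08). Hsp90ab1, the constitutive HSP90, fell by 1.24 and the inducible Hspa1b and Hsph1 by 0.68 and 0.73 on the log2 scale. Hsf1, the transcription factor that induces this family, rose by 0.69, and Hspa4, an exchange factor of HSP70, by 0.85 (SE 0.06). Copies of HSP70 genes resemble each other, so Hspa1b is uncertain. The chaperonin and prefoldin list had 6 rises and 8 falls among 14 (6 rose and 4 fell in TPM), with Cct6a at 0.56 and Cct2 at -0.37 within the same ring.

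The proteasome list had 14 rises and 16 falls among 45 genes, which turned in TPM (22 rose and 13 fell), after quantile normalization (20 rose and 14 fell) and with the trend on GC content and length removed (18 rose and 14 fell). Its changes were small, from 0.64 for the assembly factor Psmg2 to -0.74 for the core subunit Psmb7. Of 85 ubiquitin conjugation and deubiquitination genes 31 rose and 19 fell (median 0.10; 41 rose and 12 fell in TPM). Usp22, the deubiquitinase of the SAGA complex, rose by 0.88 and Usp30, of mitochondria, by 0.64. Usp5, which disassembles free chains, fell (-0.67), as did Ube2c (-0.60) and Ube2s (-0.47), the conjugating enzymes of the anaphase-promoting complex.

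Genes of DNA replication and of mitosis moved in opposite directions. Of 51 replication genes 27 rose and 9 fell (median 0.21), and of 63 genes of mitosis and its entry 31 fell and 9 rose (median -0.22). Mcm4, a subunit of the replicative helicase, was at 79.1, 77.2 and 78.7 FPKM in low arginine and at 36.3, 37.2 and 38.6 FPKM in standard arginine. Aurkb, the mitotic kinase aurora B, was at 10.2, 13.1 and 12.9 FPKM in low arginine and at 32.5, 30.4 and 30.6 FPKM in standard arginine. The groups did not overlap in either gene, with low arginine above for Mcm4 (1.05, SE 0.06, adjusted p 1.59e-07) and below for Aurkb (-1.31, SE 0.08, adjusted p 4.41e-07). Cdc6 and Cdt1, which load that helicase, rose by 0.99 and 0.82, while Fen1 and Pold2, of lagging-strand synthesis, fell (-0.55 and -0.56). Among mitotic genes Ccnf fell by 1.01, Cenpa by 0.99 and Ccnb2 by 0.79 on the log2 scale, and Ndc80, of the kinetochore, rose by 0.99 (SE 0.12). Top2a was not called (-0.08, SE 0.13).

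Of 26 cyclin, CDK and inhibitor genes of G1 13 rose and 5 fell (median 0.20). Of the 5 falls, 4 were of CDK inhibitor genes: Cdkn2d (-0.69), Cdkn2c (-0.50), Cdkn2a (-0.50) and Cdkn1a (-0.44), while the inhibitor gene Cdkn1b rose by 0.71 and Rbl1, a pocket protein, by 0.83. Replication-dependent histones had 4 rises and 5 falls among 19, with 2 rises without low replicate 2, low replicate 3 or standard replicate 3, 9 falls with no filter on low values and 1 fall with a mean FPKM of at least 5. Their mRNAs are mostly not polyadenylated and their genes are near-identical, so these values are uncertain.

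The list of p53 targets contained members of other stress pathways that moved apart: 13 of 27 rose and 8 fell (median 0.17). Gadd45b, a stress sensor also induced by NF-kB, was at 38.1, 29.99 and 31.2 FPKM in low arginine and at 8.04, 9.02 and 7.61 FPKM in standard arginine, without overlap, a change of 1.88 (SE 0.09, adjusted p 6.45e-08). Gadd45g rose by 1.55 (SE 0.08), the pro-apoptotic Bbc3 (PUMA), which CHOP also induces, by 1.18 (SE 0.06), and Trp53 itself by 0.98. Cdkn1a, the p21 gene, was at 96.8, 115 and 117 FPKM in low arginine and at 150.2, 152 and 144 FPKM in standard arginine, a change of -0.44 (SE 0.07, adjusted p 3.63e-04), and Ccng1 fell (-0.74), as did Zmat3 (-0.45). Mdm2 rose by 0.37. Apoptosis genes had 9 rises and 7 falls among 28, and 11 falls with the trend on GC content and length removed. Beside Bbc3, Casp2 rose by 1.08 (SE 0.06) and Bcl2l11 (BIM) by 0.46, and Bok (-0.95) and the initiator caspase gene Casp8 (-0.48) fell.

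Of 71 DNA repair genes 33 rose and 18 fell (38 rose and 11 fell in TPM). Chek1, the kinase of the replication checkpoint, rose by 1.14 (SE 0.08) and Recql4, a helicase, by 1.07 (SE 0.05), while Chek2, the kinase of the double-strand break checkpoint, fell (-0.82). Nuclear pore and transport genes had 25 rises and 12 falls among 52 (30 rose and 6 fell in TPM), led by Nup93 (1.01, SE 0.05) and, in the other direction, Kpna2, an importin (-0.64).

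Amino acid transporters had rises in 17 of 30 genes and falls in 7 (median 0.22). Slc3a2, the shared heavy chain of heteromeric transporters and an ATF4 target, was at 336, 317 and 300.1 FPKM in low arginine and at 105, 110.2 and 95.7 FPKM in standard arginine, a change of 1.61 (SE 0.07, adjusted p 4.28e-08). Slc38a5, a transporter of glutamine and other neutral amino acids (chromosome X, 8271133 to 8280179), was at 2.21, 4.06 and 3.15 FPKM in low arginine and at 23.3, 23.3 and 18.8 FPKM in standard arginine, a change of -2.48 (SE 0.15, adjusted p 2.58e-07). The groups were far apart in both genes, in opposite directions. Slc7a3 and Slc7a1, cationic transporters that carry arginine, rose by 0.995 (SE 0.07) and 0.95 (SE 0.07), and Slc6a9, for glycine, by 1.26 (SE 0.07). Slc38a10 (-1.29) and Slc36a1 (-0.92), the second a lysosomal exporter, fell. Over the solute carriers as a whole, 49 of 171 tested Slc genes rose and 77 fell in FPKM, and 59 rose and 64 fell in TPM.

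Enzymes of arginine, polyamine and methyl metabolism gave 11 rises and 13 falls among 41, which turned in TPM (17 rose and 9 fell) and after quantile normalization (13 rose and 10 fell). Gamt, which completes creatine synthesis, fell by 1.20, the mitochondrial creatine kinase gene Ckmt1 by 1.11 and the cytosolic Ckb by 0.99 on the log2 scale. Cth, of cysteine synthesis and an ATF4 target, rose by 1.62 (SE 0.07) and the arginine methyltransferase genes Prmt1 and Prmt3 by 1.04 and 0.66. Purine and pyrimidine genes gave 11 rises and 14 falls among 38 (16 rose and 11 fell in TPM, 14 rose and 13 fell after quantile normalization and 12 rose and 11 fell without low replicate 1). Ak4, a mitochondrial adenylate kinase, was at 2.16, 2.20 and 2.003 FPKM in low arginine and at 11.97, 15.1 and 11.47 FPKM in standard arginine, a change of -2.14 (SE 0.11, adjusted p 9.57e-08) without overlap. Cad, which starts pyrimidine synthesis, fell (-0.88) and Ppat, which starts purine synthesis, rose by 0.66.

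Redox genes were mostly lower, 21 of 40 against 8 that rose (median -0.24). The NRF2 targets Srxn1 (-1.21), Nqo1 (-0.96) and G6pdx (-0.93) fell, but Hmox1 rose by 0.72 and Nfe2l2, the NRF2 gene, by 0.34. Txnip, the inhibitor of thioredoxin that ChREBP induces in beta cells, was at 39.4, 35.6 and 38.1 FPKM in low arginine and at 9.81, 9.28 and 11.7 FPKM in standard arginine. All low libraries were higher, a change of 1.79 (SE 0.10, adjusted p 1.49e-07). Of 31 genes of metal handling 15 fell and 7 rose (9 rose and 11 fell in TPM). Mt3, a metallothionein, was at 41.1, 36.5 and 33.5 FPKM in low arginine and at 143, 143 and 127 FPKM in standard arginine, a change of -1.87 (SE 0.09, adjusted p 7.98e-08) without overlap, whereas Mt1 rose by 0.55. Tfrc, the transferrin receptor, fell (-0.81).

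The lipid, glycolysis, folding and ATF4 classes are given in short for scale. Of 24 cholesterol genes 24 fell (median -2.27), of 15 fatty acid synthesis genes 14 fell (-1.17), of 19 glycolysis genes 16 fell (-1.65) and of 32 ER folding genes 24 fell (-0.56). Among 32 ATF4 genes 27 rose (0.84). The medians of the lysosomal list (-0.62), the clock list (0.58) and the beta cell factors (0.52) were close in size to that of ER folding. Outside every list, the rule for named genes took Tox3, an HMG-box factor (2.36, SE 0.06, adjusted p 1.57e-09), Cox6a2, the cytochrome c oxidase subunit of heart and muscle (2.27, SE 0.08, adjusted p 1.44e-08), Ostn, a secreted peptide (2.22, SE 0.16, adjusted p 1.17e-06), and Zc3h8, a zinc finger protein (2.17, SE 0.09, adjusted p 3.72e-08), among the 15 largest rises. Acot2, a mitochondrial thioesterase, rose by 2.69 (SE 0.07), and Bnip3, a mitophagy receptor induced by HIF, fell by 2.71 on the log2 scale. Tox3 was at 40.3, 40.4 and 39.5 FPKM in low arginine and at 6.54, 6.74 and 7.70 FPKM in standard arginine, Cox6a2 was at 70.7, 62.1 and 61.3 FPKM in low arginine and at 12.9, 13.8 and 11.2 FPKM in standard arginine and Ostn was at 10.49, 13.9 and 13.3 FPKM in low arginine and at 2.13, 1.36 and 2.28 FPKM in standard arginine. In each the low libraries were all above the standard ones.

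In high against standard arginine 0.309% of genes tested were called, and no list had more than 3 called members. That contrast shares the standard libraries with this one, so values are given side by side. Nr1d1 had a log2 change of 2.04 in low and 0.04 in high arginine, Snhg12 of 2.73 and 0.31, Npc2 of -1.799 and -0.16 and Pax4 of 1.803 and 0.48. High minus low, which tests the difference between both responses, had an adjusted p of 1.24e-06 for Nr1d1, 1.04e-09 for Snhg12, 3.59e-08 for Npc2 and 1.48e-07 for Pax4 in limma.

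The direction of change also differed along properties of the genes. These are shares across genes, which are not independent replicates, and no test was made. By quartile of mean FPKM over the 9 libraries, falls went from 22.3% in the lowest to 46.6% in the highest quartile. Rises were 26.0% and 27.0% there, and the share called either way was 48.3% and 73.5%. This mean includes the libraries compared, so these quartiles are not independent of the changes. By gene length, the shortest quartile had 20.8% rises and 35.8% falls and the longest 36.5% and 23.9%. All shares of this kind are in FPKM. Of the 10673 coding genes with a coding sequence in GENCODE M21, those with the least G and C at the third codon position had 42.6% rises and 17.2% falls, and those with the most 26.5% and 40.2%. The lysine share of the protein ran the other way, with 25.7% rises and 40.6% falls in its lowest and 37.5% and 25.5% in its highest quartile. By the arginine share, the lowest quartile had 35.9% rises and 30.9% falls and the highest 28.7% and 34.5%. In TPM rises outnumbered falls in all 4 quartiles of these 3 shares, so the direction at one end turned: 951 rose and 871 fell in the highest quartile of G and C at the third codon position, 924 and 883 in the lowest of lysine, and 1049 and 712 in the highest of arginine. By gene length the shortest quartile kept more falls than rises in TPM (849 rose and 891 fell), as did the highest of mean FPKM (1132 rose and 1176 fell), by small margins. The median protein had 5.55% arginine among genes that rose, 5.8% among those that fell and 5.74% among those not called. Promoters with the fewest CpG had 26.2% rises and 37.6% falls, and those with the most 38.1% and 24.9%; in TPM the quartile with the fewest had 764 rises and 656 falls.

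**Figure D5:**
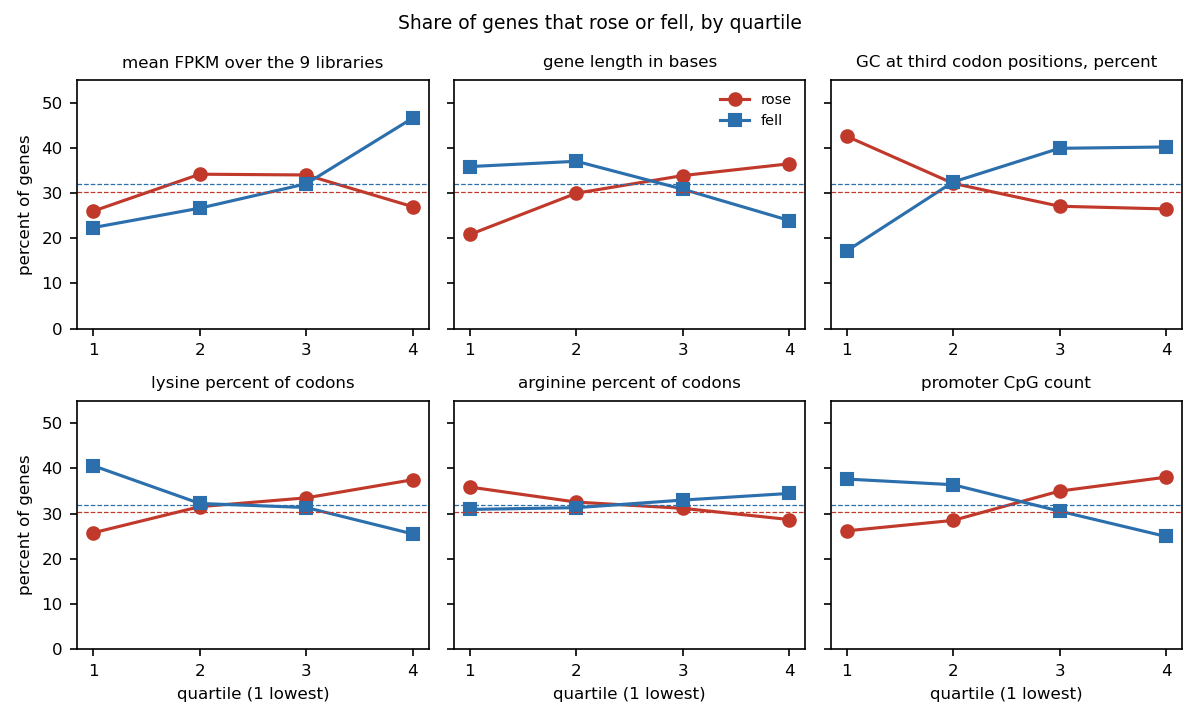
Share of genes that rose and fell (vertical axis, percent) by quartile (horizontal axis, lowest to highest) of 6 gene properties: mean FPKM over the 9 libraries, gene length, GC at the third codon position, lysine and arginine share of the protein, and CpG count of the promoter window. Shares are in FPKM. The lines cross in all 6 panels, which in TPM they do for gene length and mean FPKM but not for the other 4 properties, and lie farthest apart in the lowest quartile of GC at the third codon position, at 42.6% rises and 17.2% falls.

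By gene type, 3443 of 10771 protein-coding genes rose and 3500 fell in FPKM, and 4503 rose and 2693 fell in TPM. Long intergenic noncoding RNAs had 45 rises and 45 falls among 185 in FPKM and 52 and 32 in TPM, and antisense genes 36 and 28 among 138 in FPKM and 41 and 21 in TPM. Processed pseudogenes had 80 rises and 157 falls among 545 in FPKM, which turned to 114 and 105 in TPM, and reads of their parent genes could be counted there. Genes with no annotated type had 30 rises and 88 falls among 214 in FPKM and 39 and 78 in TPM. Of 46 miRNA genes 3 rose and 3 fell, led by Mir7k (2.20, SE 0.41), whose reads over the hairpin locus need not reflect the mature miRNA.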

How the data were processed

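RNA-seq libraries of MIN6 cells in low, standard and high arginine medium, 3 each, were grouped by their labels. The authors deposited FPKM per gene, 1 column per library, with each gene's length, per the file headers. CASAVA 1.8, HISAT2 2.0.5 and featureCounts 1.5.0-p3 are listed, per the submitters' processing notes. Whether reads were counted by strand is not known from the labels or headers. The notes name build mm9, but in 98.33% of the 54409 IDs also found in GENCODE M21 start and end were those of GRCm38, so coordinates are given as GRCm38. The table holds 54876 genes, and 0 columns of per-sample values were left unused.

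Since FPKM values are not counts, count models were not fitted. Reads rebuilt from FPKM and length were whole to within 0.01 in 100% of values and served for depth and voom weights only. The 12300 genes that reached 1 FPKM in 3 or more of the 9 libraries were fitted on log2(FPKM + 1) by limma 3.58.1 (R 4.3.3), all 9 libraries, group as the only term, 6 residual degrees of freedom and a trended prior variance; calls are two-sided at a Benjamini-Hochberg adjusted p under 0.05 over all genes tested. Gene lists are described by counts and medians, with no set test. On simulated data with 12169 genes for low against standard arginine, 14%, 72%, 93.8% and 100% of changes of 1.25, 1.5, 2 and 4-fold were recovered, and 6.12% of calls were false. Only a small set of genes was changed there and all genes shared the same dispersion, whereas 62.2% of genes were called here. These rates need not hold for this comparison.

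The comparison, the 62 lists and the rule for named genes were chosen with earlier results of these data known. The rule took the 15 largest rises and falls among called genes that have a full symbol, reach a mean of 5 FPKM in either medium and do not overlap between media, up to 4 called members per direction from each list by the same conditions, a fixed set of genes reported whatever their result, and up to 2 examples per direction from gene types and transcription factor families. Some genes this rule could name are not reported here. Promoters, from RefSeq GRCm38.p6, span 250 bases before to 50 after a gene's start and matched 8651 of 10771 tested coding genes (80.3%). Same-numbered replicates were correlated over 0.1 in 6 of 9 pairs, at up to 0.24. Replicates of different number had correlations from -0.26 to 0.14. The main fit did not pair samples by number, and whether numbers mark a batch was not tested. Alternatives were the pseudocount, the filter, TPM and quantile scaling, a fit on 6 libraries, a constant variance prior, voom weights, a 2-fold threshold, a replicate block and leaving out each library; a correction for the trend on gene GC and length was added after seeing the data.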

Additional observations from a re-analysis of the deposited data

How the results depend on the processing

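Against 3723 rises and 3923 falls, TPM gave 4855 and 3015, quantile normalization 3932 and 3712, removal of the GC and length trend 3826 and 4064, voom weights 3836 and 3961, and a fit on the 6 libraries compared 3536 and 3772. A pseudocount of 0.1 gave 3693 and 3925, a constant prior variance 3721 and 3928, and no filter on low values 3778 and 3867. A 2-fold threshold left 236 and 403, and testing only genes with a mean of 5 FPKM or more 2328 and 2816. With the replicate block 3977 rose and 4110 fell; the low and standard libraries of one number had correlations of 0.0668, 0.117 and -0.0355 in their deviations, so this is a fit on shared numbers only. Leaving out 1 library at a time gave 3333 to 3656 rises and 3568 to 3933 falls; an arm left with 2 libraries is assumed to vary like the others. Over all settings but the 2-fold threshold, named genes stayed called or stayed uncalled in 8070 cases. They lost a call in 66, gained one in 5 and reversed in 1. Outside the fixed set they were named for a call without overlap in the main fit, so kept calls follow in part from that choice. The reversal was that of Hspa5, which changed by -0.25 in FPKM and by 0.22 after quantile normalization (adjusted p 0.018 in limma). Its cause was not tested. Genes near the filter rest on few reads, and changes under 1.5-fold were recovered least often in simulated data.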

Other observations

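Motif shares over all 8651 readable promoters were close between genes that rose and genes that fell for most of the 11 motifs searched on both strands. The cyclic AMP response element, TGACGTCA, was in 4.49% of promoters of genes that rose and 3.11% of those that fell. The CCAAT box was in 37.5% and 42.5%, and the E-box CACGTG in 11.2% and 10.4%. In the immediate early gene list 1 of 26 promoters held TGACGTCA (3.85%), against 3.55% over all.

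By chromosome, rises were 24.4% and falls 38.4% of genes tested on chromosome 7, 24.2% and 36.1% on the X chromosome, and 35.5% and 27.6% on chromosome 12, in FPKM. In TPM the first 2 turned, to 317 rises and 276 falls on chromosome 7 and 131 and 118 on the X chromosome, and chromosome 12 had 196 and 91. These shares are across genes, with no test.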
